A study of Homo sapiens with 18 samples.

Results

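The genes described here are 37 genes of the interferon response and of antigen presentation, measured by 76 of the 54675 probe sets of the HG-U133 Plus 2.0 array. They are the members of a list of 38 named genes, and every probe set whose gene symbol in the annotation of the array includes a member was taken, irrespective of its signal. STAT2 is the member of the list that is not analysed here. Of the 76 probe sets, 74 carry 1 gene symbol and 2 carry several. Altogether 21 genes are represented by more than 1 probe set, and the probe set with the highest mean log2 signal over all scans then stands for the gene in what follows. The 37 genes are among 19775 genes with a probe set of their own on the array. By their roles they comprise 4 interferon receptor chains, 4 transcription factors, 20 genes induced by interferon, 7 genes of class I presentation and 2 genes of class II presentation.

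The RNA came from FTC-133, a human cell line of a follicular thyroid carcinoma, grown under standard conditions and left untreated. The same RNA was put on 3 arrays named A, B and C, each of which was stained, washed in stringent buffer and scanned repeatedly in 2 series. Scans A1 to A4 of the first series show array A after 0, 2, 7 and 17 stringent cycles. Scans B1 to B4 show array B, which had 2 cycles ahead of its staining, at the same 0, 2, 7 and 17 additional cycles. Array C followed the standard protocol, with 6 cycles and then staining and a single scan (C1). After a second staining the protocol of each array was repeated, which gave scans A5 to A8, B5 to B8 and C2. The comparisons address how the measured signal of a gene depends on washing and on staining the array anew. All 18 scans share the same RNA, the scans of 1 array share the hybridization, and the p-values below therefore rest on the technical variation of scans and not on any difference between cells.

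Type I interferons are secreted by cells that sense viral nucleic acid, and they bind the receptor chains IFNAR1 and IFNAR2. Interferon gamma binds IFNGR1 and IFNGR2. Janus kinases attached to these receptors then activate STAT proteins, which together with IRF9 bind the interferon-stimulated response element (ISRE) or, as STAT dimers, the gamma-activated sequence (GAS) in the promoters of interferon-induced genes. The products of these genes block viral replication at many steps, and others cut and transport peptides and present them on HLA molecules to T cells. Class I molecules are found on nearly all nucleated cells, whereas class II molecules are found mainly on professional antigen-presenting cells unless interferon gamma induces them through CIITA.

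Many of these genes share a short sequence in their promoters, which is shown here since it is the core of the ISRE. RefSeq promoters of the assembly GRCh38.p14 (300 bases each, around the transcription start) were found for 25 of the 37 genes, and GAAANNGAAA was searched as the core of the ISRE on both strands, where it reads TTTCNNTTTC on the opposite one. It occurs in 16 of the 25 genes. Counted by promoter, since a gene can have several, it occurs in 20 of their 33 promoters and in 3.57% of all 35116 promoters of the table. By role, 12 of 14 interferon-induced genes and 4 of 6 class I presentation genes hold it, and it was not found in these windows of 3 receptor chains and 2 transcription factors. TTCNNNGAA, the core of the GAS, reads the same on both strands and occurs in 8 of the 25 genes, in 9 of the 33 promoters and in 7.66% of all promoters. Altogether 4 genes hold both, and matches of both motifs overlap in 4 promoters. A match is a description of these letters and not of binding. The 160 bases before the start are printed for 6 genes whose signals are described below, as the strand of the gene reads them, with the ISRE matches in capitals.
ISG15 (chr1:1013337-1013496, plus strand): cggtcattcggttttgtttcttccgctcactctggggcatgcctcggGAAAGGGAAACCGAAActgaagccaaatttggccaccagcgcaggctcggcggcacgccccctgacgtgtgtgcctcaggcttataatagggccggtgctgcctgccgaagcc
IFIT1 (chr10:89392463-89392622, plus strand): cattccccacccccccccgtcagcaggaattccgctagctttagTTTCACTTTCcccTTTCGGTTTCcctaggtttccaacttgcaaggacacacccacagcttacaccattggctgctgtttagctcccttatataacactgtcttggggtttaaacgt
IFIT3 (chr10:89327837-89327996, plus strand): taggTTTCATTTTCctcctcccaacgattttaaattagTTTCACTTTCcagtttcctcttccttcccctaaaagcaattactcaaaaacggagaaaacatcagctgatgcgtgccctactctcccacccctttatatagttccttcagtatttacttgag
IFITM3 (chr11:320861-321020, minus strand): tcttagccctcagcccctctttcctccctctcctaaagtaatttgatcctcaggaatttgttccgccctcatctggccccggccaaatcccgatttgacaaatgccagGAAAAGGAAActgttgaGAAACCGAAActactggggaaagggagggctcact
TAP1 (chr6:32853705-32853864, minus strand): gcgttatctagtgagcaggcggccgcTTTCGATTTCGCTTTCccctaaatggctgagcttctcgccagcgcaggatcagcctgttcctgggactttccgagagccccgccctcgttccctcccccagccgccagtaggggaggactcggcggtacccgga
B2M (chr15:44711357-44711516, plus strand): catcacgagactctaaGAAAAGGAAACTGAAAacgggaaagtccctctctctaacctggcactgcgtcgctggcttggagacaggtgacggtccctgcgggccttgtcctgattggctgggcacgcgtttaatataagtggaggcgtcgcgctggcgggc
In ISG15, TAP1 and B2M the 2 matches overlap to one run, whereas in IFIT1, IFIT3 and IFITM3 they are separate. The match nearest to the start begins 35 bases before it in IFITM3 and 138 bases before it in B2M, with the other 4 genes between.

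The values are MAS5 signals, each of which condenses the perfect match (PM) and mismatch (MM) probes of a probe set into 1 number per scan, and each scan had been scaled by the authors to the same trimmed mean. A loss shared by all probe sets is therefore removed, and only changes relative to that trimmed mean are seen. To judge how far a signal lies above that of genes not expected in these cells, the 95th percentile of 107 probe sets of 82 olfactory receptor genes was taken on each scan. It fell between 78.7 on scan C1 and 326.3 on scan A1. Signals of different probe sets depend also on how well each binds its target, so that they are compared with this reference and with their own values on other scans, not as amounts of transcript between genes.

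The label of the cell line was set against marker genes. PAX8 and NKX2-1, transcription factors of thyroid follicular cells, exceeded the reference on all 18 scans, with median signals of 900.0 and 759. FOXE1 and TSHR exceeded it on 0 scans, TG, the thyroglobulin gene, on 1 scan, SLC5A5 on 5 and HHEX on 11. Of 7 marker genes of white blood cells, which also carry much of the machinery described here, PTPRC, CD3E, CD14 and LYZ exceeded it on 0 scans, MS4A1 on 1, ITGAM on 3 and CD79A, a chain of the B cell receptor, on 10 with a median signal of 185. The summed signal of the 7 lay between 286 and 1035 on the 18 scans. The 4 markers of antigen-presenting cells summed to 84.8 to 618, and CD74, CD86, CD1C and ITGAX exceeded the reference on 2, 0, 4 and 1 scans. Of the endothelial markers PECAM1 exceeded it on 17 scans with a median of 209, VWF on 5 and CDH5 on 1. The mesenchymal markers VIM and FN1, with medians of 15704 and 19123, exceeded it on all 18 scans, as did the keratin genes KRT8 and KRT18 of epithelia. The epithelial markers were mixed, since 2 of the 5 exceeded it on all scans and 2 on none. KRT19, with a median of 10.1, exceeded it on 0 scans and EPCAM, with 185, on 12. The part of other cell types in the signals below was not tested.

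Most of the interferon and presentation genes lay well above the reference. The signal exceeded it on all 18 scans for 27 of the 37 genes, on some scans for 8 and on none for 2, the class II genes HLA-DRA and CIITA. Over all 74 probe sets with 1 symbol, 38 exceeded it on all scans and 11 on none, whereas of all 54675 probe sets 17.0% exceeded it on all scans and 45.2% on none. The highest of 10 deciles of all probe sets by mean log2 signal held 32 of these 74 probe sets, and it held the representative of 22 of the 37 genes. Since a gene with several probe sets is represented by its brightest, the count over genes is raised by this choice, whereas the count over probe sets is not.

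**Figure D1:**
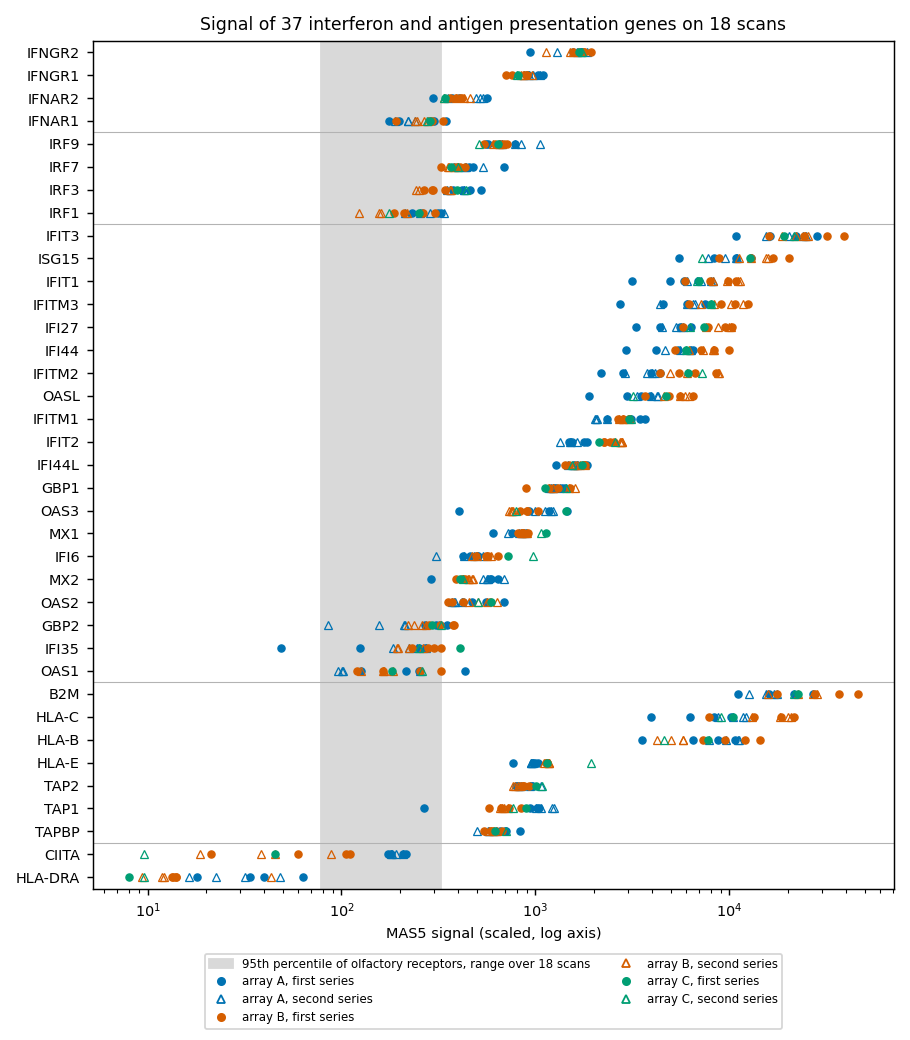
MAS5 signal (log axis) of the representative probe set of each of 37 genes on 18 scans, grouped by role from receptor chains at the top to class II genes at the bottom; colour marks the array, filled circles the first and open triangles the second series. The grey band spans the 95th percentile of the olfactory receptors over the scans, 78.7 to 326, and HLA-DRA and CIITA lie in or below it on every scan.

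The receptor chains were measured at intermediate signals. IFNGR2 and IFNGR1, the chains of the interferon gamma receptor, exceeded the reference on all 18 scans, with lowest, median and highest signals of 936, 1663 and 1942 for IFNGR2 and 702, 898 and 1091 for IFNGR1. IFNAR2 had 298, 398 and 559.9 and exceeded it on 17 scans, and IFNAR1, with 176, 256 and 344, on 14. The median rank of the 4 chains among all probe sets of a scan lay between the 78.7th and the 94.9th percentile. Of the transcription factors, IRF9, the DNA-binding partner of the STAT proteins, had lowest, median and highest signals of 514, 659 and 1060.4. IRF3, which is activated directly by viral sensors, had 243, 364 and 525, and IRF7, which amplifies the production of interferon, had 325, 397 and 690.3. These 3 exceeded the reference on all scans and IRF1, with 124, 240.3 and 339, on 16.

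Among the interferon-induced genes several probe sets rank with the brightest of the array. IFIT3, a member of the family that binds foreign RNA, had signals from 10755 to 39173 and a median rank at the 99.9th percentile. ISG15, a ubiquitin-like protein that is attached to other proteins, had lowest, median and highest signals of 5466, 11065 and 20397, and IFIT1, which binds RNA without a host cap, had 3163, 7560.2 and 11350.2. The membrane proteins IFITM3 and IFITM2, which restrict the entry of viruses, had 2728, 7286 and 12410.4 and 2187, 4671 and 8842. Their probe sets end in _x_at, a suffix of probes that can bind several transcripts, so that the signals and changes of these genes may not be independent. IFI27 had 3295, 6299 and 10354, IFI44 had 2933, 6226 and 9906 and OASL, a relative of the oligoadenylate synthetases without their enzyme activity, had 1885, 4242 and 6460.0. The median rank of each of these 8 genes was at or above the 97.8th percentile.

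The other interferon-induced genes covered a wide range. IFITM1, IFIT2, IFI44L and GBP1, a guanylate-binding GTPase, had median signals of 2833, 2185, 1633 and 1258 and were above the reference on every scan. So were OAS3 with 914 and OAS2 with 463, which synthesize the oligoadenylates that activate ribonuclease L, MX1, a dynamin-like GTPase, with 854, and IFI6 with 503. MX2, with a median of 464, exceeded the reference on 17 scans, IFI35, with 248, on 14, and GBP2 and OAS1, with 277 and 173, on 13 scans each. In total 16 of the 20 genes exceeded it on all scans.

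In class I presentation, B2M, the invariant light chain of all class I molecules, had signals from 11103 to 45986. The heavy chains HLA-C and HLA-B had lowest, median and highest signals of 3963, 11061 and 21459 and of 3530.0, 7800.2 and 14443, and HLA-E, a class I molecule read by natural killer cells, had 766, 1117 and 1933. The heavy chain probe sets used here carry the suffix _x_at, which marks probes that can bind several transcripts, so that their signals may include other class I genes. TAP1 and TAP2, the subunits of the peptide transporter, had median signals of 805 and 855, and TAPBP, which links the transporter to class I molecules, 616. All exceeded the reference on 18 scans except TAP1, which stood at 267 on scan A1, below the 326.3 of that scan, and between 577 and 1240.3 on the others. HLA-DRA, the alpha chain of the class II molecule HLA-DR, had lowest, median and highest signals of 8.03, 15.2 and 62.9, and CIITA, the transactivator of class II genes, had 9.63, 108 and 214. All 5 probe sets of these 2 genes remained below the reference on every scan, which bounds their signal and does not show that the transcripts are absent.

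The scaled signal of the bright interferon and presentation genes rose with washing, a direction that turned when the brightest probe sets of the array were held fixed. From 0 to 17 additional cycles, over both series and arrays A and B, 16 of the 76 probe sets rose and 3 fell (limma with the array and series as block, adjusted p under 0.05 over all probe sets), which is 21.1% and 3.95%. Of all 54675 probe sets 2.82% rose and 6.61% fell. The 16 that rose belong to 11 genes, namely IFIT3, ISG15, IFIT1, IFITM3, IFITM2, IFI27, IFI44, OASL, B2M, HLA-C and HLA-B, and when the signal of the 100 probe sets that are brightest on scan C1 was held fixed (anchored scans), the change of each of the 11 had the opposite sign. With quantile normalization 4 of the 11 changed sign. Centring each scan on its median gave 18 rises and 1 fall, where 4.57% and 1.05% of all probe sets rose and fell. Anchoring gave 0 rises and 54 falls of the 76, where 0.00549% of all probe sets rose and 80.0% fell. The 3 that fell belong to OAS1, GBP2 and IFI44, and their changes were below 0 with centring, quantile normalization and anchoring too. Without scan A4 the counts were 1 rise and 0 falls (0.269% and 0.585% of all probe sets), without scan B4 they were 5 and 0 (0.774% and 1.79% of all), with quantile normalization 0 and 0 (0.00366% and 0.00183% of all), and without the block or on either array alone 0 and 0 (0% of all). The changes of the 12 genes called (the 11 and OAS1) lay between -1.27 and 0.99, the same without the block, and between -1.13 and 0.92 without scan A4. By role, 10 of 32 probe sets of interferon-induced genes and 6 of 21 of class I presentation rose, the 3 that fell are of interferon-induced genes, and 0 of 11 of the receptors, 0 of 5 of the transcription factors and 0 of 5 of class II passed in either direction.

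IFIT3 had signals of 10755, 16268, 22117 and 28390.0 on scans A1 to A4 and of 16024, 24355, 31765 and 39173 on scans B1 to B4. After the second staining these were 15420.3, 20346, 24040.0 and 24716 on scans A5 to A8 and 18632, 21970.0, 24627 and 25418 on scans B5 to B8. Its last scan was the highest in each of the 4 courses, and the change was 0.95 (standard error 0.17, adjusted p = 0.015). ISG15 was 5466, 8325, 10788 and 12928 and 8873, 12919, 16861 and 20397 in the first series, and 7715, 9537, 10935 and 10825 and 11195, 12918, 15458 and 15719 in the second. On array A the second course levelled off between 7 and 17 cycles, and the change over all courses was 0.86 (standard error 0.16, adjusted p = 0.016). On array C, with its standard washing, ISG15 had 12753 and 7251.

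B2M was likewise highest on the last scan of each course, with 11103, 16059.9, 21437 and 27019.6 on scans A1 to A4 and 17624, 27606, 36637 and 45986 on scans B1 to B4. The second series gave 12674, 15486, 16894 and 17664 on scans A5 to A8 and 15802, 22610.1, 27014 and 28115 on scans B5 to B8. The log2 change was 0.99 (standard error 0.16, adjusted p = 0.014), and its second bright probe set gave 1.09 (standard error 0.16, adjusted p = 0.014). HLA-C was 3963, 6293, 8371 and 10164 on scans A1 to A4 and 7841, 13346, 18480.0 and 21459 on B1 to B4. It then was 8690.3, 10435, 12235 and 11686 on A5 to A8 and 13033, 18200.2, 20796 and 19940.0 on B5 to B8, so that the last scan of each second course lay below the one before. Its change was 0.96 (standard error 0.18, adjusted p = 0.016), and 3 of its 4 probe sets rose. HLA-B changed by 0.89 (standard error 0.19, adjusted p = 0.020), with 3530.0, 6469, 8701 and 10679 on scans A1 to A4. Its signals on array B are given with the second staining below.

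**Figure D2:**
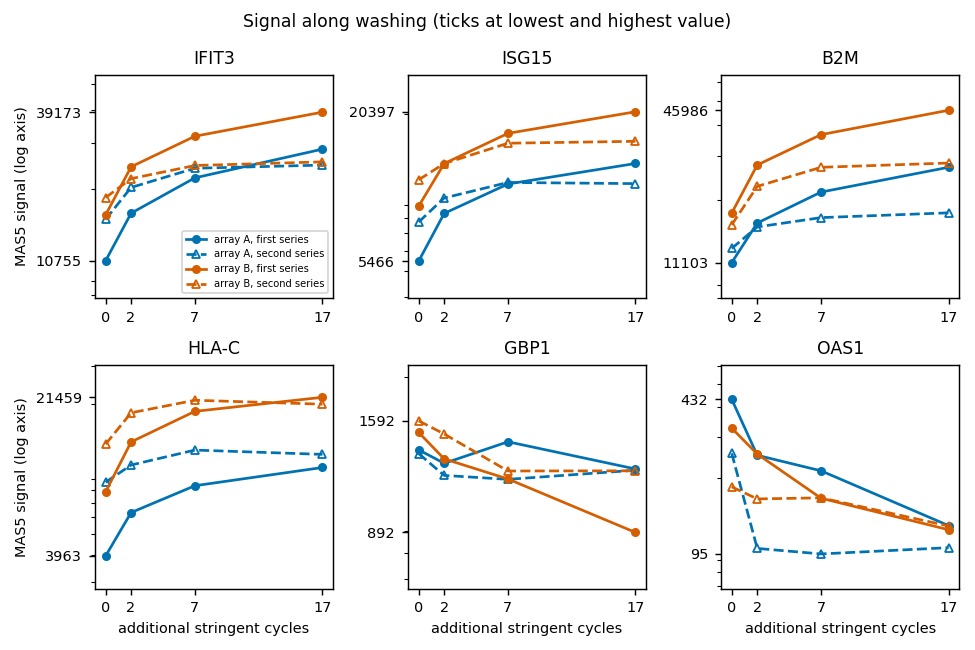
MAS5 signal (log axis, each panel with its own range) of 6 genes against the number of additional stringent cycles (0, 2, 7 and 17) on arrays A and B in both series. IFIT3, ISG15, B2M and HLA-C rise from the first to the last scan of each course in scaled signal, whereas OAS1 falls from 432 to 126 on array A. In scans anchored on the 100 brightest, the limma change over all courses of IFIT3, ISG15, B2M and HLA-C has the opposite sign. Single courses of the first series still rise there, with 102% kept for IFIT3 on array A. On array B it is 103.1% for B2M and 108% for HLA-C.

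The other genes that rose changed by 0.64 to 0.94. IFITM3 had 2728, 4542, 6020.3 and 7467 on scans A1 to A4 and 6213, 9043, 10693 and 12410.4 on scans B1 to B4, and its change was 0.94 (standard error 0.16, adjusted p = 0.015). IFITM2 changed by 0.83, IFIT1 by 0.73, IFI44 by 0.74, OASL by 0.65 and IFI27 by 0.64, with standard errors from 0.14 to 0.15 and adjusted p from 0.015 to 0.027. IFIT1 stood at 3163, 4948, 5836 and 6853 on scans A1 to A4 and at 5868, 7950.4, 9819 and 10759 on scans B1 to B4. In the first series each of the 11 genes rose in signal at every step on both arrays, by a median of 0.61 from 0 to 2 cycles, 0.41 from 2 to 7 and 0.27 from 7 to 17 on array A, and of 0.46, 0.30 and 0.25 on array B. In the second series the medians on array A were 0.29, 0.17 and 0.031, those on array B 0.24, 0.21 and 0.0098, and over the last step 9 and 7 of the 11 genes were still higher. Over the same steps of the first series the median of all probe sets was -0.32, -0.15 and -0.057 for array A. For array B it was -0.071, -0.075 and -0.058. In the second series these medians were -0.19, -0.044 and -0.0081 for array A. Those of array B were -0.060, -0.13 and 0.0024. The 11 genes had been called for their rise from 0 to 17 cycles in these same scans. Their higher last scans therefore follow largely from this choice. How many of all probe sets rose at every step was not counted.

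OAS1, which senses double-stranded RNA and makes oligoadenylates, fell. Its signal was 432, 250.02, 215 and 126 on scans A1 to A4, 326, 253, 164 and 121 on scans B1 to B4, 255, 101, 95.4 and 101 on A5 to A8 and 184, 163, 165 and 125 on B5 to B8. The first scan was the highest of each course, and the change of -1.27 (standard error 0.24, adjusted p = 0.016) lies -0.93 from the median of the 500 probe sets nearest in mean signal. The last scans, from 101 to 126, lay below the reference of their scan on array A, whereas those of array B lay above theirs. A second probe set of OAS1, with a median signal of 164, changed by 0.18 (standard error 0.35, adjusted p = 0.76). GBP2 and IFI44 fell in their dimmer probe sets, by 1.21 at a median signal of 76.1 for GBP2 (standard error 0.31, adjusted p = 0.038) and by 0.69 at 155 for IFI44 (standard error 0.19, adjusted p = 0.049). The dimmer probe set of GBP2 exceeded the olfactory receptor reference on 1 of 18 scans, so that its change lies mostly at or below the level of genes not expected here. That of IFI44 exceeded it on 9 scans, all of arrays B and C, so that its courses on array A lie below that level. The brighter probe set of GBP2 changed by -0.15 (standard error 0.24, adjusted p = 0.69).

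Of the genes that did not pass the test, GBP1 had 1369, 1277, 1428 and 1239.7 on scans A1 to A4 and 1499, 1306, 1177 and 892 on scans B1 to B4. Its change of -0.35 (standard error 0.15, adjusted p = 0.16) lies -0.50 from that of probe sets of like signal, and the last scan was below the first in all 4 courses. IFIT2, a relative of IFIT1 and IFIT3, changed by 0.078 (standard error 0.13, adjusted p = 0.73), and MX1 by 0.17 (standard error 0.14, adjusted p = 0.44). OAS3 changed by 0.58 (standard error 0.27, adjusted p = 0.18), with 401, 924, 1178 and 1457 on scans A1 to A4 but 837, 1034, 901 and 905 on scans B1 to B4, a difference between arrays that was not tested. TAP1 had 267, 932, 1021 and 1037 on scans A1 to A4 and 840.2, 668, 733 and 577 on scans B1 to B4, and its change was 0.38 (standard error 0.34, adjusted p = 0.48). IFI35, which interacts with NMI, had 49.0, 124, 268 and 252 on array A, where the first scan was its lowest of all 18, and 299.6, 232, 280.0 and 326 on array B. Scan A1, the only one with no stringent washing at all, holds the lowest value of 20 of the 37 genes but also the highest of 6. Scan B4 holds the highest of 10 and the lowest of 3. These counts were not made over all probe sets, so that it is not known whether they are particular to these genes.

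No receptor chain and no transcription factor passed the test. IFNGR2 changed by 0.43 (standard error 0.18, adjusted p = 0.14) and was higher on the last than on the first scan in 4 of 4 courses, whereas IFNGR1 changed by -0.16 (standard error 0.12, adjusted p = 0.41). IFNAR1 changed by -0.46 (standard error 0.20, adjusted p = 0.17) and IFNAR2 by 0.33 (standard error 0.17, adjusted p = 0.22). IRF9 changed by 0.29 (standard error 0.16, adjusted p = 0.25), IRF7 by -0.21 (standard error 0.19, adjusted p = 0.49), IRF3 by -0.28 (standard error 0.17, adjusted p = 0.28) and IRF1 by -0.38 (standard error 0.22, adjusted p = 0.27). In class II, HLA-DRA changed by -0.52 (standard error 0.50, adjusted p = 0.52) and CIITA by -0.14 (standard error 0.53, adjusted p = 0.88), with both signs among the 4 courses of either gene at signals below the reference.

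**Figure D3:**
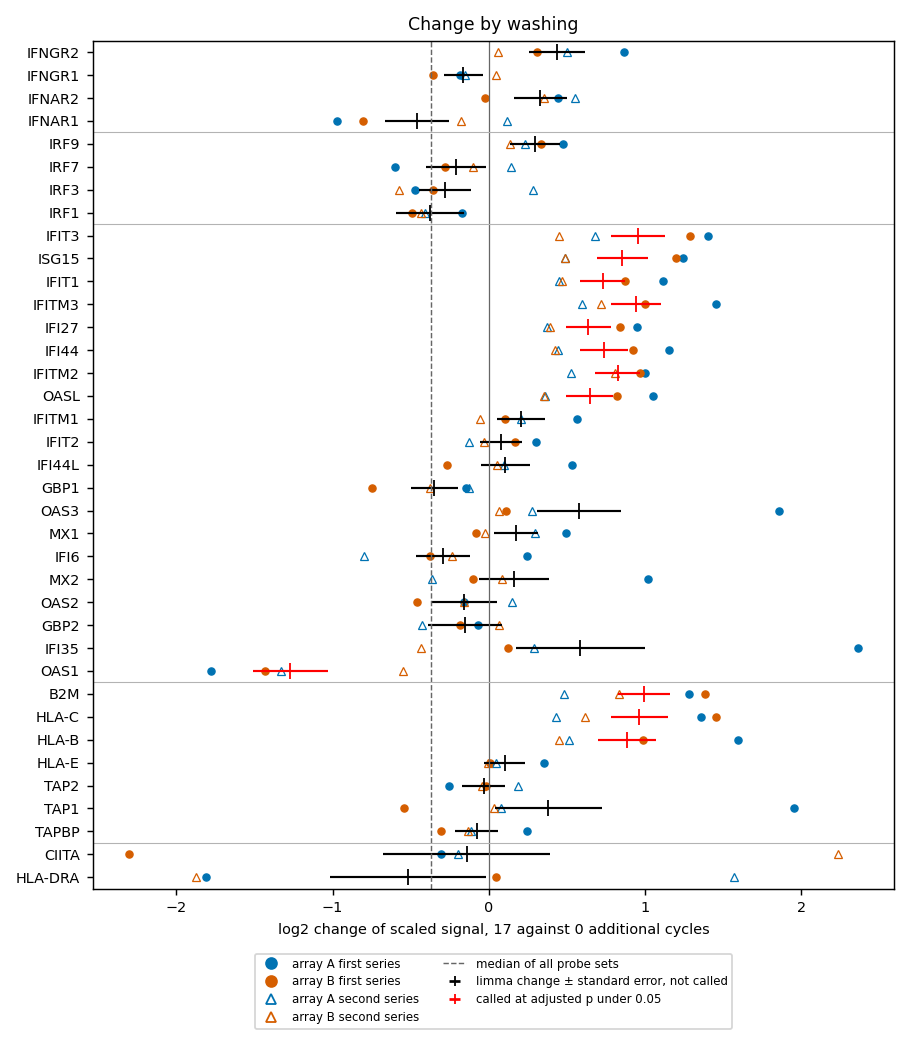
Change of scaled signal on the log2 axis from 0 to 17 additional cycles for 37 genes by role; symbols give the 4 courses (array and series) and crosses the limma change with its standard error, red where the adjusted p is under 0.05. The dashed line marks the median of all probe sets, -0.37; 11 genes rose and OAS1 fell, and the direction of the 11 is reversed in scans anchored on the 100 brightest.

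The change differed with the signal of the probe set, from negative medians at low signals to positive ones at high signals. Over all probe sets the median log2 change was -0.37, and it ran from -0.78 in the lowest decile by mean signal over -0.14 in decile 9 to 0.30 in the highest. In anchored scans the median of all was -1.49 and the 11 genes changed by -0.49 to -0.13. The median of the 37 genes was 0.17, which is 0.54 above all probe sets, and 33 of the 37 lay above the median of all. All 16 probe sets that rose lie in the highest decile, which holds 33 of the 76. There 16 of the 33 rose against 26.9% of all probe sets of that decile, and 0 of the 33 fell against 0.933%. Signals vary widely within this decile, so that each gene was also set beside the 500 probe sets nearest in mean signal. The median difference was then -0.0020 over the 37 genes, with 18 of them above their neighbours, and 0.092 over the 76 probe sets, with 46 above. For IFIT3 the neighbours changed by 0.96, for B2M by 0.96, for ISG15 by 0.90, for HLA-C by 0.91 and for IFIT1 by 0.78, and the genes differ from these values by -0.0020, 0.038, -0.044, 0.052 and -0.049. By mean log2 signal 15 probe sets of the array are brighter than that of IFIT3 and 22 brighter than that of B2M, so that nearly all neighbours of these genes are dimmer. These differences from neighbours were not tested.

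**Figure D4:**
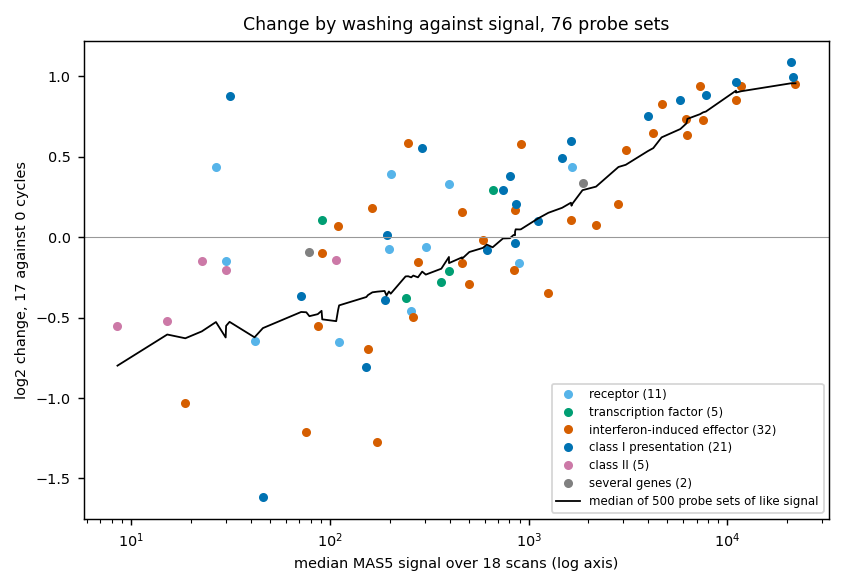
Log2 change of scaled signal from 0 to 17 additional cycles against the median MAS5 signal over 18 scans (log axis) for 76 probe sets, coloured by role, with the median of the 500 probe sets of like signal as a line. The line goes up to 0.96 at the highest signals, a rise that is reversed in scans anchored on the 100 brightest, and the 25 probe sets above a signal of 1000 lie from -0.50 to 0.40 away from it, GBP1 lowest, with wider scatter below.

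Several genes are read by probe sets that differ in signal and in change. Of the 21 genes with more than 1 probe set, 10 had changes of both signs, and IFI44 is the 1 gene whose probe sets were called in both directions. Its bright probe set, with a median signal of 6226, changed by 0.74 and its dim one, with 155, by -0.69. For B2M the median signals were 21534, 20857 and 31.3, and the dimmest probe set was below the reference on all scans and changed by 0.88 (standard error 0.81, adjusted p = 0.50). TAP2 has 4 probe sets with median signals from 46.0 to 855 and changes from -1.61 to 0.016. The 4 of GBP1 lie between 18.7 and 1258, and their changes, from -1.03 to -0.020, are below 0 in each. The probe sets of OASL, 0.65 and 0.54, and of IFIT3, 0.95 and 0.94, rose, with their differences not tested.

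Within single series the same change was not called for any probe set. In the first series 0 of the 76 passed in either direction, and 0% of all probe sets, by limma with 3 residual degrees of freedom, while at an unadjusted p under 0.05 it was 15 higher and 2 lower, where 3.50% and 13.9% of all were. With a variance trend and robust moderation 17 rose and 1 fell, where 3.57% and 1.21% of all did. In the second series 0 passed, again 0% of all, with 12 higher and 2 lower unadjusted (2.55% and 11.6% of all) and 17 and 0 with that moderation (2.38% and 0.448% of all). The median of the 37 genes was 0.24 in the first and 0.073 in the second series, and that of all probe sets -0.45 and -0.24. In the test of the interaction of washing and series, 0 of the 76 passed and 0% of all, with 2 higher and 7 lower unadjusted (4.91% and 2.58% of all) and 0 and 13 with the same moderation (0.0384% and 1.38% of all). IFIT3 changed by 1.35 in the first and 0.56 in the second series, a difference of -0.78 (standard error 0.27, adjusted p = 0.63). HLA-C changed by 1.41 and 0.52, a difference of -0.89 (standard error 0.26, adjusted p = 0.61).

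In anchored scans, where the 100 brightest probe sets are treated as free of loss, a surviving percentage can be given for each course. It had a median over the 37 genes of 54.4% on array A in the first series, where all probe sets had 25.2%, and of 39.7% on array B against 32.8%. The second series gave 67.4% against 47.7% for array A and 52.9% against 44.0% for array B. The representatives of 22 of the 37 genes lie in the highest decile, so that these medians are not set beside probe sets of like signal. B2M, 2 of whose probe sets are themselves among these 100, kept 93.8% and 103.1% in the first series, IFIT3 102% and 96.6%, and ISG15 91.2% and 90.9%. OAS1 kept 11.2% and 14.7%, and GBP1 34.9% and 23.5%. No test was made of single courses.

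For staining the arrays anew no probe set of these genes passed the test. Over 9 pairs of scans of the same array and step, second against first series, 0 of the 76 probe sets rose and 0 fell (limma), against 0.294% and 0.541% of all probe sets. At an unadjusted p under 0.05 it was 6 higher and 6 lower, a share below the 8.34% and 11.3% of all probe sets. With a variance trend and robust moderation 2 rose and 3 fell (1.53% and 1.83% of all), and in anchored scans 34 rose and 1 fell (20.1% and 0.995% of all). No representative probe set was higher in all 9 pairs, nor lower in all. Of the dimmer probe sets, one of CIITA was higher in all 9, by 0.79 to 3.74, at signals below the reference. One of IFNAR2 was lower in all 9, from -2.55 to -0.13, and one of TAP2 from -0.76 to -0.0055. They exceeded the reference on 6 and 14 scans. Pairs of the same direction were not counted over all probe sets, so that no share of all can be set beside these cases. The median change of the 37 genes was -0.015 and that of all probe sets -0.022. IFIT1 was higher in 8 of 9 pairs, with differences from -0.026 to 0.93 and a change of 0.36 (standard error 0.12, adjusted p = 0.16). B2M was lower in 8 of 9 pairs, from -0.71 to 0.19, with a change of -0.28 (standard error 0.12, adjusted p = 0.26). GBP2 was also lower in 8 of 9, with a change of -0.63 (standard error 0.18, adjusted p = 0.12). The study describes scanner saturation of a small share of probes in the second series and not in the first. MAS5 signals do not show which probes these are, and its part in the values of bright genes such as B2M and IFIT3 was not tested.

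For HLA-B the direction differed between the arrays. HLA-B was higher after the second staining in 4 of 4 pairs of array A, by 0.067 to 1.15, and lower in 4 of 4 pairs of array B, by -1.32 to -0.78, and on array C its single pair gave -0.76. The change over all pairs was -0.30 (standard error 0.27, adjusted p = 0.57). On array B it stood at 7288, 9531, 12056 and 14443 in the first and 4239, 4997, 5766 and 5782 in the second series, without overlap. HLA-C, in contrast, was 7841, 13346, 18480.0 and 21459 and then 13033, 18200.2, 20796 and 19940.0 on array B, and its change was 0.41 (standard error 0.16, adjusted p = 0.20). The dimmer probe sets of HLA-B changed by 0.31 and 0.0036. The first of these was higher in 4 of 4 pairs of array A and in 3 of 4 pairs of array B, the second higher in 3 of 4 of array A and lower in 4 of 4 of array B. The difference between arrays was not tested.

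**Figure D5:**
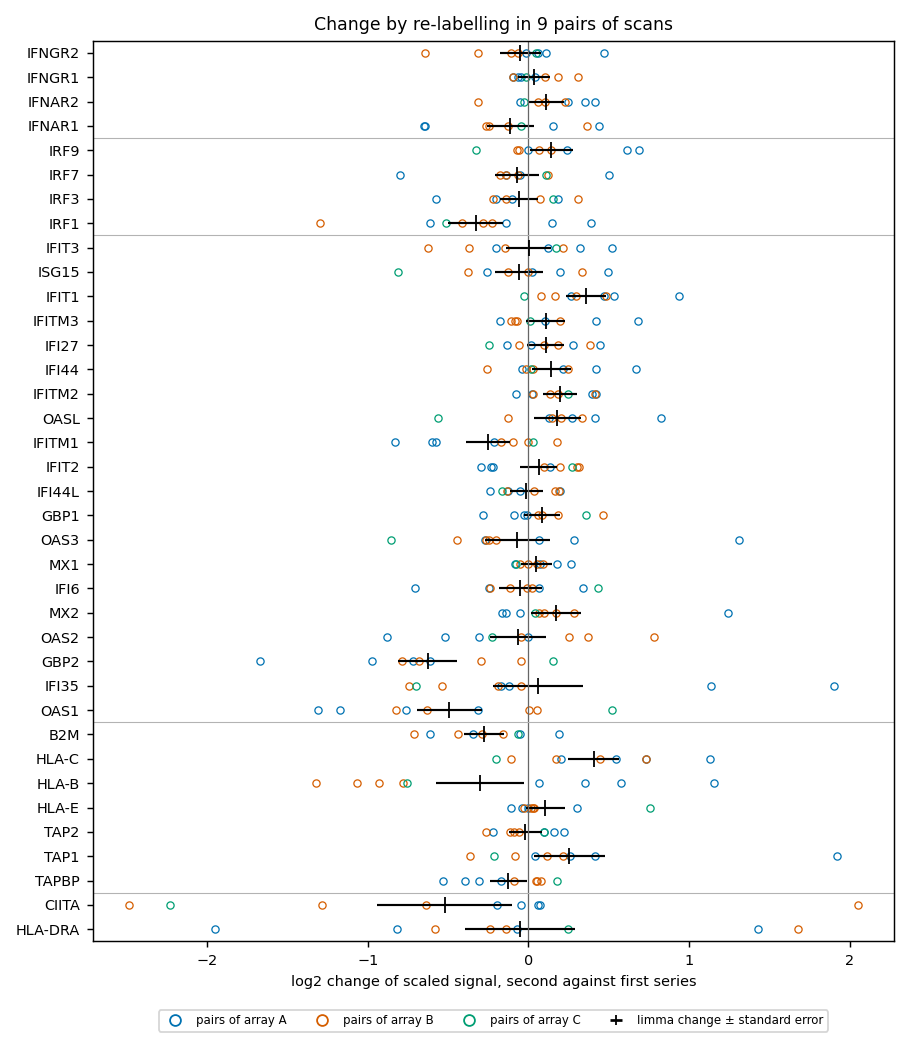
Change of scaled signal on the log2 axis from the first to the second series for 37 genes by role, with 9 pairs of scans of the same array and step as circles coloured by array and the limma change with its standard error as crosses. No gene passed the adjusted p of 0.05; the pairs of HLA-B lie above 0 on array A and below 0 on array B, and in anchored scans 34 of the 76 probe sets rose.

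Further genes of the same pathways were taken from a list of 64 symbols, of which 59 were measured. Over both series 4 rose and 5 fell with washing, which is 6.78% and 8.47% of the 59, beside the 2.82% and 6.61% of all probe sets, and 0 passed for re-labelling. Each of the 59 is read by its brightest probe set, so that these shares are not set beside probe sets of like signal. Of all probe sets of the highest decile by mean signal 26.9% rose, and of those of decile 8 12.1% fell. In signalling, 0 of 9 rose and 1 fell, in viral sensing 0 of 8 rose and 2 fell, of 17 further effectors 0 passed, and in presentation 4 of 25 rose and 2 fell. The largest rises were those of CANX, a chaperone of newly made class I chains, by 0.85 (standard error 0.18, adjusted p = 0.020), of PSME1, a subunit of the proteasome activator PA28, by 0.80 (standard error 0.17, adjusted p = 0.022), and of PDIA3, a component of the peptide loading complex, by 0.77 (standard error 0.15, adjusted p = 0.016). These changes were -0.28, -0.33 and -0.35 in anchored scans, and with quantile normalization that of CANX was -0.025, whereas those of PSME1 and PDIA3 were 0.36 and 0.085. Their median signals were 9054, 3409 and 5995, with median ranks at percentiles 99.1, 97.1 and 98.5 of all probe sets. The largest falls were those of TLR3, a sensor of double-stranded RNA, with -1.49 (standard error 0.36, adjusted p = 0.031), of RFXAP, a factor of class II promoters, with -1.10 (standard error 0.19, adjusted p = 0.015), and of ERAP2, which trims peptides, with -0.71 (standard error 0.14, adjusted p = 0.017), at median signals of 105, 176 and 431. The probe set of TLR3 exceeded the reference on 4 of 18 scans, that of RFXAP on 11 and that of ERAP2 on 18, so that the size of the fall of TLR3 is bounded by that level only. Of the 59 genes 27 exceeded the olfactory receptor reference on all 18 scans and 2 on none, and their median change with washing was 0.0029.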

How the data were processed

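The authors hybridized biotin-labelled RNA of FTC-133 cells to 3 HG-U133 Plus 2.0 arrays and deposited a MAS5 signal per probe set and scan on a linear scale, scaled per scan. This scaling was checked: trimmed by 2% of the probe sets at each end, the means of the 18 scans were equal within rounding. The version of MAS5 is not given in the sources used here. The signals carry no counts, and the number of arrays limits the precision. Probe sets were named from the annotation of the platform, of which 41043 of 41097 with 1 symbol matched a RefSeq gene by identifier.

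Changes were tested on log2 signals of all 54675 probe sets, without offset or filter, with limma 3.58.1 (lmFit, eBayes) in R 4.3.3, with Benjamini-Hochberg adjusted p-values over all probe sets and a threshold of 0.05. Washing was tested as 17 against 0 additional cycles with the step as a factor and the array, or the array and series, as block. The block pairs scans of the same hybridization. For re-labelling the block was the pair of scans of 1 array and step. The fits were tested on simulated data. Descriptive values and plots used Python 3.11.15, numpy 2.4.6, pandas 2.3.3 and matplotlib 3.10.9. Scans were grouped by array, series and step from the labels. Alternatives were other scalings between scans, the brighter 27338 probe sets alone, an offset of 16, another variance model, no block, leaving out scans, pairs or arrays, and other choices of the probe set of a gene. The comparison with the nearest 500 probe sets was added after the data had been seen. All members of the list may be named, and of the further pathway genes the 3 largest rises and falls past the threshold. The members and lists were chosen with earlier results of these data known. Single PM and MM intensities and detection calls were not analysed here.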

Additional observations from a re-analysis of the deposited data

How the results depend on the processing

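The calls with washing changed with the scaling, the block and the last scans of the first series. The changes of the 12 genes called lay between -1.27 and 0.99 with and without the block, between -1.13 and 0.92 without scan A4, -1.20 and 0.93 without scan B4, -1.55 and 1.05 on array A alone and -0.99 and 1.11 on array B alone. Over both series, where 16 probe sets rose and 3 fell, quantile normalization gave 0 and 0, anchoring 0 and 54, array A alone 0 and 0, and array B alone 0 and 0. Centring on the median gave 18 and 1. Leaving out 1 scan at a time gave 1 to 16 rises and 0 to 3 falls, with 1 and 0 without scan A4, 5 and 0 without scan B4, and 1 fall without A1, A5, A6, A7, B2, B5 or B7. Of all 54675 probe sets 147 to 1467 then rose and 320 to 3301 fell. Without the replicate block that pairs scans of the same array, 0 rose and 0 fell in each washing comparison and for re-labelling. For re-labelling without the block, 24 of all 54675 probe sets rose and 99 fell. In the first series keeping the brighter 27338 probe sets gave 7 and 1, a variance trend with robust moderation 17 and 1, and anchoring 0 and 38. Beside these, 542 and 163 of the 27338 brighter probe sets rose and fell. With the moderation it was 1954 and 661 of all 54675, and with anchoring 7 and 29870. In the second series that moderation gave 17 and 0 and anchoring 0 and 27, and in the interaction the moderation gave 0 and 13. Of all 54675 these were 1301 and 245, 20 and 23386, and 21 and 757. For re-labelling anchoring gave 34 and 1, the moderation 2 and 3, quantile normalization 1 and 0, and the offset 1 and 0. Of all 54675 these were 10977 and 544, 836 and 998, 290 and 282, and 361 and 606. Leaving out a pair or an array gave 0 to 1 of either direction, with 1 rise without B4 and B8 and 1 fall without C1 and C2. Of all 54675 probe sets 0 to 202 then rose and 0 to 533 fell. Averaged over all probe sets of a gene, 0 in place of 1 gene fell and 9 in place of 11 rose.

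Of the 12 genes called, anchoring turned the sign of 11, to -0.13 for B2M, -0.24 for HLA-B, -0.16 for HLA-C, -0.49 for IFI27, -0.39 for IFI44, -0.39 for IFIT1, -0.17 for IFIT3, -0.30 for IFITM2, -0.18 for IFITM3, -0.27 for ISG15 and -0.48 for OASL. Quantile normalization turned 4, to -0.077 for IFI27, -0.017 for IFIT1, -0.035 for IFIT3 and -0.084 for ISG15. Anchoring holds the brightest probe sets fixed by construction and quantile normalization the distribution of each scan. All 12 calls remained with centring, the offset, the brighter 27338 probe sets and the other variance model. Signal over background was not measured, and 11 of 74 probe sets lay below the olfactory receptors on every scan, so that their changes are bounded by this level only.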

Other observations

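The 2 probe sets that carry several symbols stood apart from the counts by gene. The one of IFITM2 and IFITM1 had lowest, median and highest signals of 1237, 1868 and 2456 and changed by 0.34 (standard error 0.14, adjusted p = 0.13) with washing over both series (limma). The one of RNF31 and IRF9 had 27.0, 78.8 and 261, exceeded the olfactory receptor reference on 4 of 18 scans and changed by -0.094 (standard error 0.51, adjusted p = 0.92).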
